A study of Mus musculus with 24 samples.

Results

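Pairs of related genes were followed through the first wave of spermatogenesis in mouse testis, each pair made of a parent gene on the X chromosome and its germ cell retrogene on an autosome: *Pdha1* and *Pdha2*, *Utp14a* and *Utp14b*, *Cstf2* and *Cstf2t*, and *Rbmx* and *Rbmxl2*. These 8 genes were taken by their symbols from the 24456 genes that each count table lists, and all 8 passed the filter on low counts that left 17170 genes. The RNA was taken from testes of mice that were either wild type (WT) or homozygous for a knockout (KO) of *Atad2*, at postnatal days 20, 22, 24 and 26. There were 4 WT and 4 KO libraries at day 20, 4 and 4 at day 22, 2 and 2 at day 24, and 2 and 2 at day 26. The KO allele carries a *lacZ* cassette that fuses the first exons of *Atad2* to β-galactosidase, and a Cre under the *CMV* promoter, which is active in most tissues, removed its *neo* cassette and a coding exon, so the allele is not restricted to germ cells. The protein encoded by *Atad2* binds acetylated histones through a bromodomain and carries AAA ATPase modules, and the question was how transcription in the testis changes without it as post-meiotic cells appear. No batch is given in the labels, and nothing in them says that the libraries of a group came from separate animals, so p-values measure the spread between these libraries, although the study's methods speak of biological replicates.

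A retrogene arises when a processed mRNA is copied back into the genome, so it usually lacks the introns of its parent. In pachytene spermatocytes the X chromosome is silenced, a state known as meiotic sex chromosome inactivation that is largely kept in spermatids. Autosomal retrogenes of X-linked housekeeping genes are a textbook case of genes that stay active in those cells. The members serve different processes: *Pdha1* and *Pdha2* encode the E1 alpha subunit of the pyruvate dehydrogenase complex, which feeds pyruvate into the citric acid cycle. *Utp14a* and *Utp14b* encode a factor of the small subunit processome, which makes 18S ribosomal RNA, and loss of *Utp14b* is the cause of the *jsd* juvenile spermatogonial depletion mutant. *Cstf2* and *Cstf2t* encode the RNA-binding 64-kDa subunit of cleavage stimulation factor and its τ variant, which act in the formation of mRNA 3′ ends. *Rbmx* and *Rbmxl2* encode hnRNP G, a splicing regulator, and its germ cell form hnRNP G-T.

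All coordinates are those of mm10 with the GENCODE M21 annotation. *Pdha2* is a single exon on chromosome 3 (141210004 to 141212355, minus strand), and *Pdha1* has 11 exons on the X from 160122209 to 160138413, minus strand. *Cstf2t* is a single exon on chromosome 19 from 31082837 to 31087069, plus strand, inside an intron of *Prkg1* on the opposite strand, and *Cstf2* has 14 exons on the X from 134059187 to 134086819, plus strand. *Rbmxl2* is a single exon on chromosome 7 from 107209445 to 107210916, plus strand, and *Rbmx* has 9 exons on the X from 57383530 to 57393036, minus strand. *Utp14b* lies on chromosome 1 from 78658038 to 78671512, plus strand, nested in *Acsl3* on the same strand, and *Utp14a* has 15 exons on the X from 48256862 to 48282453, plus strand. *Utp14b* was the only retrogene of the 4 with more than 1 annotated exon, having up to 4 in a coding transcript, and 244 of its exonic bases are also exonic in *Acsl3*. Pairs of reads within those 244 bases could not be assigned to 1 gene.

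Whether short reads can separate a retrogene from its parent was examined on the transcript sequences, because read pairs with more than 1 alignment were discarded before counting. The coding sequence of *Pdha2* was identical to that of *Pdha1* at 885 of 1170 aligned bases (75.6%). The shares were 77.9% for *Utp14b* and *Utp14a*, 75.5% for *Cstf2t* and *Cstf2*, and 68.1% for *Rbmxl2* and *Rbmx*. No window of 75 bases, the read length, was shared between any of the 4 retrogenes and its parent, and the longest identical stretch was 20, 30, 26 and 13 bases in the same order of pairs. The windows of 75 coding bases in which each pair was most alike are given here, in the 5′ to 3′ direction of the gene, with the bases that differ between the partners in capitals. A read from even these windows carries 5 differences in the *Pdha* pair, 6 in the *Utp14* pair, 10 in the *Cstf2* pair and 15 in the *Rbmx* pair.
*Pdha2* (chr3:141211431-141211505, minus strand): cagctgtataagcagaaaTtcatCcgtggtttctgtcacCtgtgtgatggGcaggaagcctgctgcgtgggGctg
*Pdha1* (chrX:160130215-160132122, minus strand): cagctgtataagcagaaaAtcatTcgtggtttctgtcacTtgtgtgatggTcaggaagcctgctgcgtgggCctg
*Utp14b* (chr1:78666380-78666454, plus strand): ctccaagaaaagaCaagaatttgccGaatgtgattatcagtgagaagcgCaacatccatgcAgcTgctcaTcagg
*Utp14a* (chrX:48278694-48282062, plus strand): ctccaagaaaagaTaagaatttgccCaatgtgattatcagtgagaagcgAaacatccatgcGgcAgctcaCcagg
*Cstf2t* (chr19:31083210-31083284, plus strand): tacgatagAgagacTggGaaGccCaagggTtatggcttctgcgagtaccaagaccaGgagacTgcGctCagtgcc
*Cstf2* (chrX:134060952-134061026, plus strand): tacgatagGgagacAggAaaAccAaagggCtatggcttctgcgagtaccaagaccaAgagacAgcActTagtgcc
*Rbmxl2* (chr7:107209690-107209764, plus strand): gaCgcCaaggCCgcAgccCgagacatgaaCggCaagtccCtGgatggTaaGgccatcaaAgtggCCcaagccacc
*Rbmx* (chrX:57390197-57391307, minus strand): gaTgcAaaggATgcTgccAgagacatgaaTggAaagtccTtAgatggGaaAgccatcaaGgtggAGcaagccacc
The windows of *Pdha1*, *Utp14a* and *Rbmx* each cross 1 exon junction, so their genomic span includes an intron, whereas the windows of the retrogenes are unbroken in the genome. Windows shared with other annotated transcripts made up 13.9% of the *Pdha1* transcript, 13.6% of *Utp14a* and 7.34% of *Cstf2*, each with 1 overlapping neighbor (*Map3k15*, *9530027J09Rik* and *Nox1*) on the opposite strand, which the stranded counting separates. *Cstf2* also shared 82 exonic bases with a microRNA gene on its own strand, which that counting does not separate. *Utp14b* shared 1.82% of its windows with *Acsl3*. *Pdha2*, *Cstf2t*, *Rbmxl2* and *Rbmx* shared none. *Rbmxl1*, a further retrocopy of *Rbmx* on chromosome 8, was 90.9% identical to *Rbmx* and shared 69.2% of its windows with 2 other annotated transcripts, so its counts are uncertain. Copies in the genome that are not annotated as transcripts were not searched.

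The promoters of the *Pdha* pair differed in base composition. They are printed from the RefSeq table of promoters (GRCm38.p6), as the 250 bases before the annotated start, 5′ to 3′ in the direction of the gene, with matches to the motifs searched in capitals.
*Pdha2* (chr3:141212356-141212605, minus strand): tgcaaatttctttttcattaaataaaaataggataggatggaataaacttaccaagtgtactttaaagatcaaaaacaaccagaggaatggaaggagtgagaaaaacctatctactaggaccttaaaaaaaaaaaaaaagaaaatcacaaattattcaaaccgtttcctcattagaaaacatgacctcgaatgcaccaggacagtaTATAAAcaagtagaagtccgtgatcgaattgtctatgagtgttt
*Pdha1* (chrX:160138431-160138680, minus strand): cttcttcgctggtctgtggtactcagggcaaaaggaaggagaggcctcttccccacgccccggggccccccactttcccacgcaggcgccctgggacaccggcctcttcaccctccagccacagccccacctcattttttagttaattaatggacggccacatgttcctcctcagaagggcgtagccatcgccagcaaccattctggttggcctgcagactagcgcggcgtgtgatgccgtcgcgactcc
The 250 bases before *Pdha2* had a GC content of 31.6% and 4 CpG dinucleotides, against 61.6% and 15 for *Pdha1*. Over the 32851 promoters of the table the median was 52.4% GC and 6 CpG. *Utp14b* (37 CpG), *Rbmxl2* (23) and *Cstf2t* (19) lay above the upper quartile of 16, as did *Utp14a* and *Cstf2* (17 each), while *Rbmx* had 9. A set of 4 motifs was searched on both strands, the CRE half-site TGACG, the GC box GGGCGG, the CCAAT box CCAAT and the TATA box TATAAA, which occur in 17.8%, 32.7%, 33.8% and 12.4% of promoters of this length. *Pdha2* was the only member with TATAAA, and *Pdha1* and *Utp14b* held none of the 4 motifs. GGGCGG was found once each in *Utp14a*, *Cstf2t*, *Cstf2* and *Rbmxl2*, and CCAAT once each in *Utp14a*, *Cstf2t*, *Rbmxl2* and *Rbmx*. TGACG was found once in *Utp14a* and at 2 positions in *Cstf2*. A match describes the letters of these windows and is not evidence of binding.

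Libraries held between 10709667 and 19491935 read pairs counted in genes. The shallowest library, WT_d20_2 (WT, day 20, replicate 2), stood apart from the rest: 13.7% of its read pairs had several alignments, against 9.16% in the next highest library, and mitochondrial ribosomal RNA took 3.26% of its counts, against 1.06%. The targeted gene *Atad2* was at 76.1 to 171 CPM (counts scaled by TMM to a common library size, per 1000000) in the 12 WT libraries and at 30.8 to 53.0 CPM in the 12 KO libraries. The exons before the cassette remain in the KO transcript, so it need not fall to 0. Markers of somatic testis cells were present in all libraries, and the 3 epididymis markers (*Crisp1*, *Adam7*, *Lcn5*), of which 2 passed the filter, summed to over 100 CPM in 7 libraries, WT_d20_3, WT_d22_4, WT_d24_2, WT_d26_2, KO_d22_1, KO_d24_2 and KO_d26_2. In RNA from testis, fewer cells of a type and less RNA per cell cannot be told apart.

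In these juvenile testes each of the 4 retrogenes had a higher mean level per length of transcript than its parent. Levels between genes are compared as CPM per kilobase of exon, averaged over the 24 libraries (mean ± SD). *Pdha2* was highest at 90.9 ± 13.5, followed by *Cstf2t* at 28.5 ± 2.46, *Rbmxl2* at 25.5 ± 3.76, *Cstf2* at 11.7 ± 1.67, *Pdha1* at 11.4 ± 3.13, *Rbmx* at 7.71 ± 1.46, *Utp14b* at 7.05 ± 0.658 and *Utp14a* at 4.01 ± 0.609. The lowest library of *Pdha2*, at 51.5 CPM per kilobase, lay above the highest library of any other member. *Cstf2t* (22.4 to 34.4) and *Rbmxl2* (18.8 to 32.5) overlapped each other but not the 4 parents, of which the highest single value was 17.9, for *Pdha1*. *Cstf2* and *Pdha1* overlapped, as did *Rbmx* (5.20 to 11.6) and *Utp14b* (5.50 to 8.38), so the order of these neighbors is not resolved. The ranges of *Utp14b* and *Utp14a* (2.84 to 5.88) also met. Per kilobase of coding sequence the order changed below *Cstf2t*: *Cstf2* (mean 38.5, range 30.3 to 52.7) lay above *Rbmxl2* (32.5, 24.0 to 41.4) with overlap, *Utp14b* (23.1, 18.1 to 27.5) lay above *Rbmx* (21.1, 14.2 to 31.9), and *Utp14b* no longer met *Utp14a* (4.37, 3.09 to 6.41). On that scale *Cstf2t* (63.6, 50.0 to 76.8) met *Cstf2*, *Rbmxl2* met its parent *Rbmx* and lay below it in 1 of 24 libraries, WT_d20_3 (24.0 against 26.2), *Rbmxl2* also met *Pdha1* (27.8, 14.0 to 43.5), and *Pdha2* (182, 103 to 225) stayed above all others. Raw counts behind a value ran from 101 to 198 for *Utp14a*, the least covered member, to between 2097 and 4106 for *Pdha2*.

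**Figure D1:**
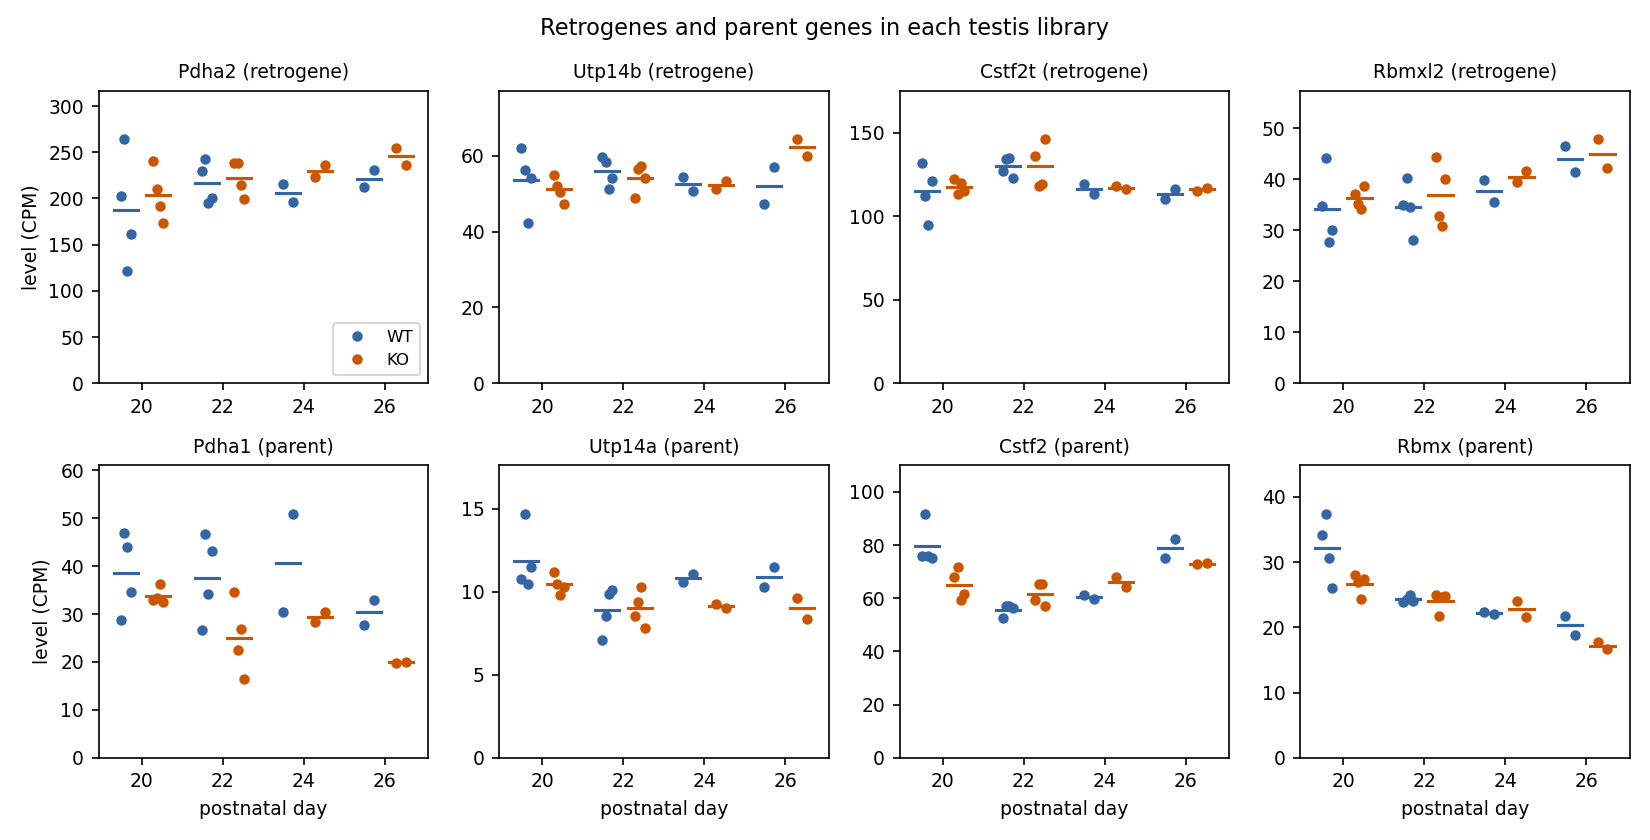
Level of each retrogene (top) and its parent (bottom) in every library, in TMM-scaled CPM against postnatal day, with WT in blue and KO in orange, 1 point per library and a bar at the group mean. *Pdha1* fell to 19.8 and 20.0 CPM in the KO libraries of day 26, *Rbmx* declined with age in both genotypes, and *Cstf2t* varied least over the libraries (coefficient of variation 8.65%).

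No difference between KO and WT was detected in the retrogenes. None of the 4 was called at an adjusted p under 0.05 in edgeR's quasi-likelihood test at day 20, 22, 24 or 26 or over the mean of the 4 days, and 0 had an unadjusted p under 0.05 (23.2% of all genes did over the mean) or were called by DESeq2. Over that mean their differences were 0.11 (95% interval −0.08 to 0.31) on the log2 scale for *Pdha2*, 0.04 (−0.09 to 0.16) for *Utp14b*, 0.02 (−0.10 to 0.14) for *Cstf2t* and 0.08 (−0.09 to 0.25) for *Rbmxl2*. Of the 4 parents, 1 was called over the mean of the 4 days, *Pdha1*, and no member was called at a single day in the edgeR fit over all 24 libraries. With day 26 fitted alone *Pdha1* was called there (−0.60, edgeR adjusted p = 0.0165), in a fit that called 2104 genes at that day. DESeq2 called *Cstf2* at day 20 (−0.30, adjusted p = 0.0125), where it called 901 genes. In the edgeR fit over all 24 libraries, 7.08% of all 17170 genes tested were called over the mean of the 4 days. At the single days 3.34%, 2.51%, 0.0874% and 0.0466% were called there, in order of age. So 1 call among 8 members over the mean is near the background. For the members at single days, the smallest unadjusted p-values were 0.00357 for *Cstf2* at day 20 and 0.0111 for *Pdha1* at day 22. Groups of 2 libraries, as at days 24 and 26, can lie apart without a difference between genotypes. The share of all genes whose groups did not overlap is not given here. The median difference over the mean of the 4 days was 0.06 for the retrogenes and −0.15 for the parents, beside −0.10 for all 729 X-linked genes tested and 0.01 for the 16389 autosomal genes.

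**Figure D2:**
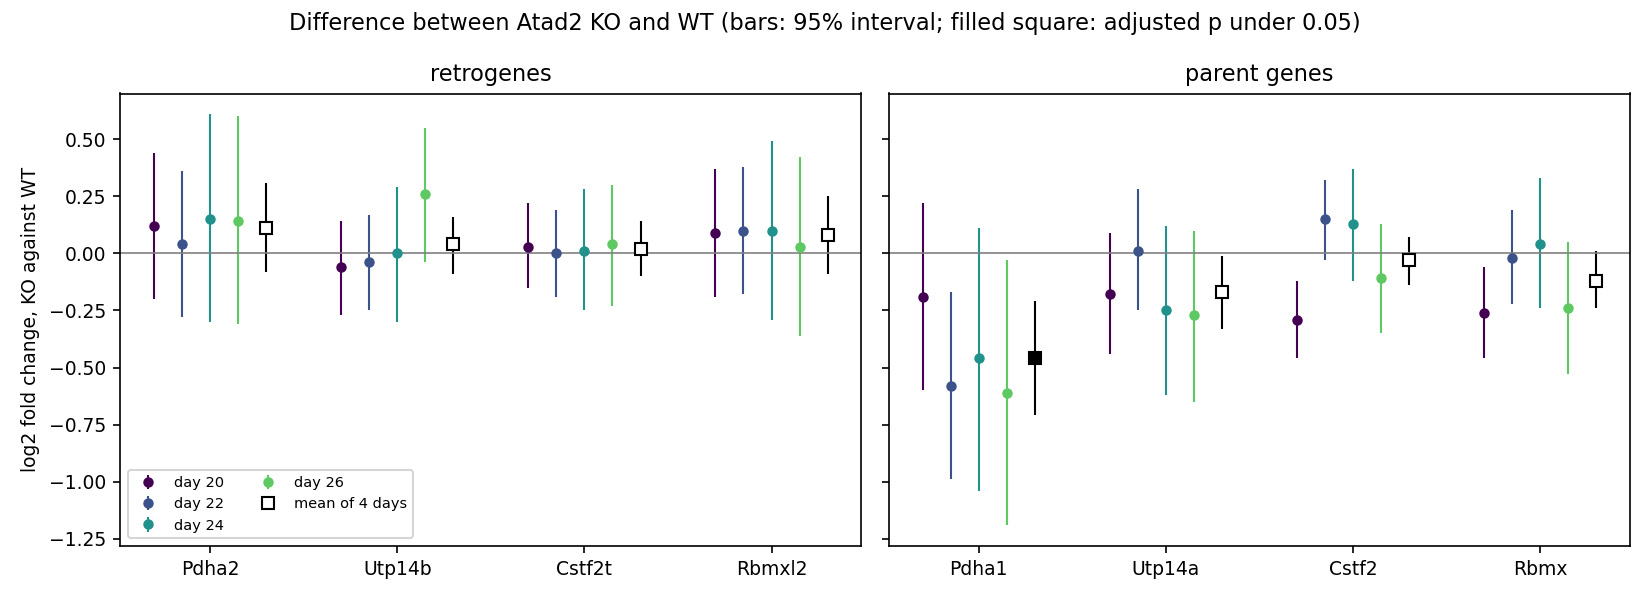
Log2 fold change of KO against WT for each retrogene (left) and parent (right), as circles for each day and a square for the mean of the 4 days, with 95% intervals. Only the square of *Pdha1*, at −0.46, is filled, which marks an adjusted p under 0.05.

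*Pdha1* was lower in KO testes over the mean of the 4 days. At day 20 the 4 WT libraries were at 28.8, 47.0, 44.0 and 34.7 CPM and the KO libraries at 33.0, 33.4, 36.3 and 32.6 CPM, so the groups overlapped. At day 22 WT was at 26.6, 46.6, 34.1 and 43.1 CPM and KO at 34.7, 22.4, 26.9 and 16.4 CPM, again with overlap, although all 4 KO libraries lay below the WT median. At day 24 WT was at 30.4 and 50.9 CPM and KO at 28.4 and 30.5 CPM. At day 26 WT was at 27.7 and 33.0 CPM and KO at 19.8 and 20.0 CPM, the only day on which the groups did not overlap. The log2 fold changes at the 4 days were −0.19, −0.58, −0.46 and −0.61, with adjusted p-values of 0.807, 0.155, 1.0 and 0.437 in edgeR's quasi-likelihood test. Averaged over days the difference was −0.46 (SE 0.128, 1.38-fold lower, adjusted p = 0.0343). Whether the difference changed with day was tested jointly and was not called (edgeR adjusted p = 0.959), and this joint test called 1 gene of all tested (0.00582%).

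The call on *Pdha1* depended on single libraries. When 1 library was left out at a time, it held in 13 of 24 fits. Without WT_d24_2 the difference was −0.34 (adjusted p = 0.151, edgeR), without WT_d20_3 −0.43 (0.0627), without KO_d20_4 −0.46 (0.051), without WT_d22_2 −0.42 (0.0595) and without WT_d22_4 −0.44 (0.0571). Leaving out KO_d24_1 or KO_d24_2 gave −0.45 (0.0844) and −0.47 (0.0717), WT_d26_1 or WT_d26_2 −0.49 (0.0606) and −0.43 (0.0832), and KO_d26_1 or KO_d26_2 −0.45 (0.0826) and −0.46 (0.0878). Without the 7 libraries that held epididymis markers, an alternative chosen after seeing the data, it was −0.34 (adjusted p = 0.486), with days 24 and 26 resting on 1 library per genotype that was assumed to vary like the other groups. The difference at day 22 was called when KO_d22_1 was left out (−0.78, adjusted p = 0.0353, edgeR), and it was −0.42 without KO_d22_4 (adjusted p = 0.388). The difference at day 24 was −0.79 without WT_d24_1 and −0.03 without WT_d24_2.

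Markers of other cells moved with *Pdha1*. The 5 peritubular cell markers (*Acta2*, *Myh11*, *Cnn1*, *Tagln*, *Des*; 5 of 5 tested, none at 0) summed to 593 to 1040 CPM in WT and 509 to 658 CPM in KO at day 20, to 496 to 732 and 251 to 514 CPM at day 22, to 495 to 552 and 437 to 441 CPM at day 24, and to 363 to 436 and 270 to 312 CPM at day 26. They were lower in KO without overlap at days 24 and 26, and KO_d22_4, the library lowest in *Pdha1* at 16.4 CPM, was lowest in these markers at 251 CPM. That library was also the lowest of the 24 in read pairs with several alignments (4.74%), in mitochondrial ribosomal RNA (0.17% of counts) and in macrophage markers (117 CPM), and its chi-square per gene against the other KO libraries of day 22 was 45.1 to 53.0, beside 19.6 to 40.3 among those. The 8 pachytene markers (8 of 8 tested, none at 0, *Pgk2* among them) were higher in KO at day 26, at 6780 and 6800 CPM against 5340 and 5740 CPM. The 8 round spermatid markers (8 of 8 tested, none at 0) summed to 839 and 847 CPM in WT and 918 and 1000 CPM in KO at that age. The 8 elongating spermatid markers (8 of 8 tested, none at 0) summed to 1.68 to 7.34 CPM in WT and 6.21 to 100 CPM in KO at day 20, to 36.3 to 79.3 and 80.8 to 548 CPM at day 22, to 410 to 460 and 727 to 1500 CPM at day 24, and to 1840 to 2960 and 3000 to 3070 CPM at day 26. They were higher in KO without overlap at days 22, 24 and 26. The 7 Sertoli cell markers (7 of 7 tested) were lower in KO without overlap at day 26, at 241 to 261 CPM against 285 to 309 CPM, but KO_d22_4 was the highest library of day 22 in them at 459 CPM. The 6 Leydig cell markers (6 of 6 tested) were higher in KO at day 24, at 889 to 1050 CPM against 501 to 702 CPM, and lower at day 26, at 872 to 999 CPM against 1090 to 1800 CPM. The 7 spermatogonia markers were lower in KO without overlap at day 26, at 154 to 157 CPM against 172 to 185 CPM. So were the 7 early meiosis markers, at 971 to 1020 CPM against 1060 to 1150 CPM, and at day 24, at 1050 to 1070 CPM against 1080 to 1350 CPM. The epididymis markers reached 685 CPM in WT_d24_2, the library highest in *Pdha1* at 50.9 CPM. The part of these cells in the *Pdha1* result was not tested.

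**Figure D3:**
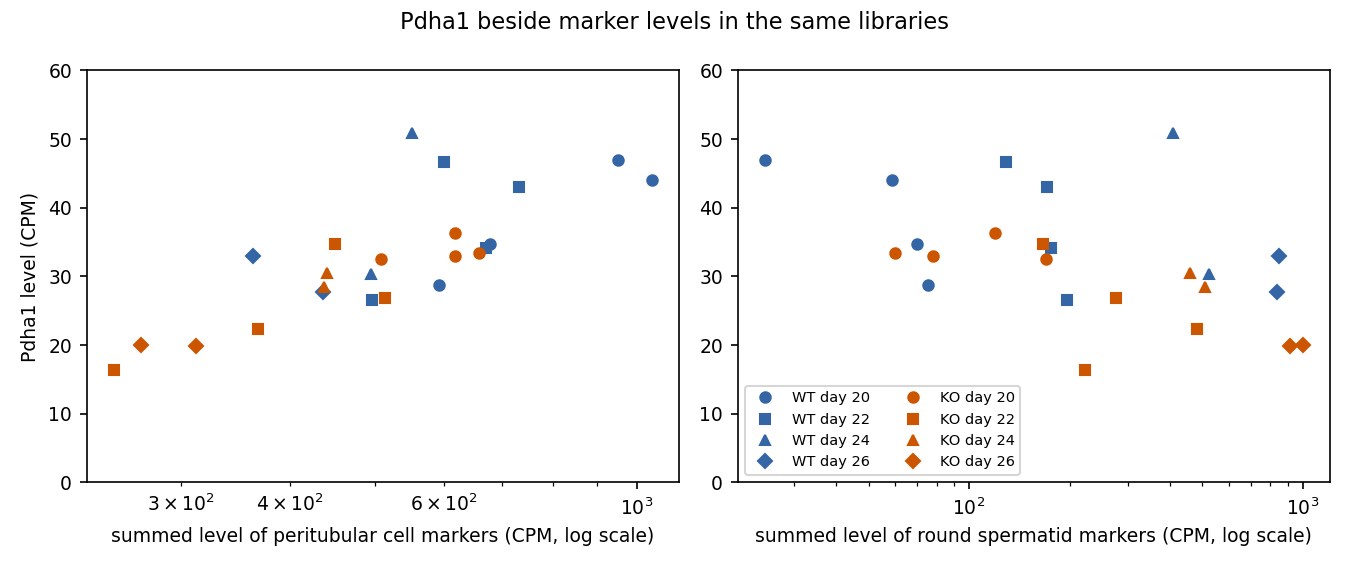
Level of *Pdha1* in each library (CPM) against the summed level of the peritubular cell markers (left) and round spermatid markers (right), both on a log axis, with WT in blue, KO in orange and 1 symbol per day. KO_d22_4 lies lowest on the left at 251 CPM of markers and 16.4 CPM of *Pdha1*.

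*Pdha2* showed no difference past the test. At day 20 it was at 203, 264, 121 and 162 CPM in WT and at 241, 210, 192 and 173 CPM in KO. At day 22 it was at 230, 243, 195 and 200 CPM in WT and 238, 238, 215 and 199 CPM in KO. At days 24 and 26 both KO libraries (223 and 236, then 255 and 236 CPM) lay above both WT libraries (216 and 196, then 212 and 231 CPM), but the differences of 0.15 (adjusted p = 1.0, edgeR) and 0.14 (adjusted p = 0.855) did not pass the test. WT_d20_2 and WT_d20_3 were the highest and lowest libraries of *Pdha2* in the whole series, at 264 and 121 CPM.

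The ratio of *Pdha2* to *Pdha1* rose in KO and with age. A ratio within a library does not depend on its scaling, and it was tested on the log2 scale (prior count 2) by exact two-sided permutation of genotype labels within days, giving 176400 relabellings. The p-values of the 4 pairs are given as they are, not adjusted for the 8 ratio tests made. At day 20 the log2 ratio was 2.24 ± 0.575 in WT and 2.58 ± 0.222 in KO (SD, 4 libraries each), and at day 22 it was 2.55 ± 0.388 and 3.19 ± 0.372. At day 24 the WT libraries were at 2.83 and 1.95 and the KO libraries at 2.97 and 2.95, and at day 26 at 2.93 and 2.80 and at 3.68 and 3.55. KO exceeded WT in the mean of all 4 days, by 0.57 on average (exact permutation p = 0.00149), a 1.49-fold higher ratio. Without any single library the difference stayed between 0.46 and 0.68 with exact permutation p-values of 0.000385 to 0.00709, and without the 7 libraries with epididymis markers it was 0.41 (exact permutation p = 0.0257). From day 20 to day 26 the ratio rose by 0.62 in WT and 1.04 in KO, a mean of 0.83 (exact permutation of the 2 ages within genotypes, 225 relabellings, p = 0.0133). Without WT_d26_1 that was 0.80 (exact permutation p = 0.0667) and without WT_d26_2 it was 0.86 (p = 0.0533). The KO ratio shares its direction with the *Pdha1* levels above, from which it is partly made, and is not separate evidence.

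With age, *Pdha1* fell in KO. From day 20 to day 26 the change in KO was −0.77 (SE 0.265, 1.70-fold, edgeR adjusted p = 0.0195), with both KO libraries of day 26 below all 4 of day 20. Without KO_d26_1 it was −0.77 (adjusted p = 0.0942) and without KO_d26_2 −0.79 (adjusted p = 0.0948), so the call needed both libraries. It was −0.74 without the 7 libraries with epididymis markers (adjusted p = 0.108). The peritubular cell markers went from 509 to 658 CPM at day 20 to 270 to 312 CPM at day 26 in KO, and their part was not tested. In WT the change was −0.35 (95% interval −0.85 to 0.16, adjusted p = 0.29). The difference between genotypes in this change is part of the joint test above, which was not called. *Pdha2* changed by 0.24 in WT (adjusted p = 0.336) and 0.27 in KO (adjusted p = 0.267). Without WT_d20_2, the library that stood apart and its highest, *Pdha2* rose in WT by 0.42 (edgeR adjusted p = 0.0355), and without WT_d20_3 the change was 0.05 (adjusted p = 0.824). Of all genes tested 42.5% were called between these ages in WT and 52.2% in KO. The median X-linked gene changed by −0.40 in WT and −0.58 in KO.

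**Figure D4:**
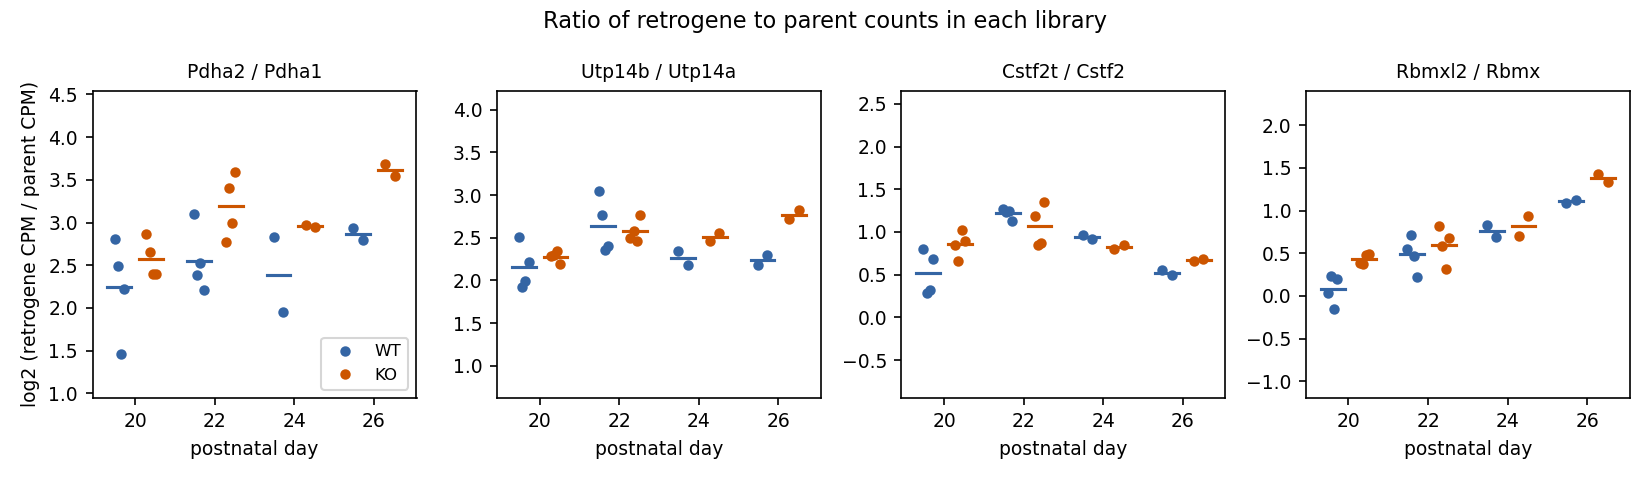
Log2 ratio of retrogene to parent CPM in each library against postnatal day, WT in blue and KO in orange, with a bar at each group mean. All 4 panels span the same range of 3.6 log2 units. The *Pdha2* to *Pdha1* ratio was higher in KO in the mean of each day, and the *Rbmxl2* to *Rbmx* ratio rose with age in both genotypes.

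*Rbmx* fell with age in both genotypes, and no change of *Rbmxl2* passed the test. In WT *Rbmx* was at 34.2, 37.4, 30.7 and 26.1 CPM at day 20, at 23.9, 24.4, 24.9 and 24.1 CPM at day 22, at 22.3 and 22.1 CPM at day 24 and at 21.7 and 18.9 CPM at day 26. In KO it was at 28.1, 27.0, 24.4 and 27.4 CPM at day 20, at 25.0, 21.7, 24.6 and 24.8 CPM at day 22, at 24.1 and 21.6 CPM at day 24 and at 17.7 and 16.7 CPM at day 26. In neither genotype did days 20 and 26 overlap. The change was −0.66 in WT (SE 0.13, 1.58-fold, edgeR adjusted p = 0.000352) and −0.64 in KO (SE 0.131, 1.55-fold, adjusted p = 0.000464). Both calls held in all 24 fits that left out 1 library. Without the 7 libraries with epididymis markers the changes were −0.58 (adjusted p = 0.067) and −0.56 (adjusted p = 0.0623), with 1 library per genotype at day 26. The spermatogonia markers (7 of 7 tested, none at 0) fell from 267 to 333 CPM at day 20 to 172 to 185 CPM at day 26 in WT and from 231 to 287 to 154 to 157 CPM in KO. Early meiosis, Sertoli cell and peritubular cell markers also fell in both genotypes. In WT they were at 1250 to 2390, 410 to 526 and 593 to 1040 CPM at day 20, and at 1060 to 1150, 285 to 309 and 363 to 436 CPM at day 26. Pachytene, spermatid and Leydig cell markers rose. The part of these cells in the *Rbmx* result was not tested. Between genotypes *Rbmx* differed by −0.26 at day 20 (edgeR adjusted p = 0.245) and by −0.24 at day 26 (adjusted p = 0.556), and at day 26 both KO libraries lay below both WT libraries.

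*Rbmxl2* was at 34.8, 44.1, 27.7 and 30.0 CPM in WT and 37.0, 35.2, 34.1 and 38.6 CPM in KO at day 20. At day 22 it was at 35.0, 40.2, 34.6 and 28.1 CPM in WT and 44.4, 32.7, 30.8 and 40.0 CPM in KO. It reached 46.5 and 41.4 CPM in WT and 47.8 and 42.1 CPM in KO at day 26, after 39.8 and 35.6 and then 39.4 and 41.5 CPM at day 24. The genotypes overlapped on all 4 days. The change from day 20 to day 26 was 0.37 in WT (SE 0.171, edgeR adjusted p = 0.0903) and 0.31 in KO (SE 0.171, adjusted p = 0.132). Without WT_d20_2 it was called in WT, at 0.47 (adjusted p = 0.0162), and without WT_d20_3 it was 0.25 (adjusted p = 0.272). *Rbmxl1* changed by −0.53 in WT (SE 0.123, adjusted p = 0.00143) and −0.23 in KO (adjusted p = 0.114), with the uncertainty of its counts given above.

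The log2 ratio of *Rbmxl2* to *Rbmx* rose between the ages by 1.03 in WT and 0.94 in KO, a 1.98-fold change over both genotypes ( exact permutation p = 0.00444, the smallest that 225 relabellings can give). It was −0.15 to 0.24 in WT at day 20 and 1.09 and 1.13 at day 26, and 0.38 to 0.49 and then 1.33 and 1.43 in KO. Over the 24 libraries this ratio was higher in KO at all 4 days, by 0.20 on average (1.15-fold, exact permutation p = 0.00478), and at day 20 and day 26 the genotypes did not overlap. Leaving out any single library gave 0.17 to 0.23 with exact permutation p-values of 0.00126 to 0.0144. Without the 7 libraries with epididymis markers it was 0.11 (exact permutation p = 0.32). At day 20 the pachytene markers summed to 2440 to 3150 CPM in WT and 3050 to 3870 CPM in KO, and the round spermatid markers to 24.4 to 75.4 CPM in WT and 60.2 to 170 CPM in KO. At day 26 the pachytene markers were at 5340 and 5740 CPM in WT and 6780 and 6800 CPM in KO, and the round spermatid markers at 839 and 847 and at 918 and 1000 CPM. So this ratio moved with these markers between ages and between genotypes at both days, although the marker ranges overlapped at day 20. Their part in it was not tested.

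The order of the genotypes in *Cstf2* changed between days. In WT it was at 76.0, 91.7, 76.0 and 75.2 CPM at day 20, at 52.7, 57.0, 57.0 and 56.2 CPM at day 22, at 61.2 and 59.8 CPM at day 24 and at 75.3 and 82.3 CPM at day 26. In KO it was at 67.9, 71.7, 59.2 and 61.7 CPM, at 59.3, 65.3, 65.2 and 57.2 CPM, at 67.8 and 64.3 CPM and at 72.9 and 73.1 CPM. KO lay below WT without overlap at days 20 and 26 and above WT without overlap at days 22 and 24. The log2 fold changes were −0.29 (SE 0.0886, edgeR adjusted p = 0.0841), 0.15 (0.0887, 0.506), 0.13 (0.125, 1.0) and −0.11 (0.125, 0.775). The joint test of a change between days gave an edgeR adjusted p of 0.375. DESeq2 called both the difference at day 20 (−0.30, adjusted p = 0.0125) and the change between days. In edgeR the difference at day 20 was called only when KO_d20_2 was left out (−0.34, adjusted p = 0.0431). It was −0.23 without WT_d20_2.

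*Cstf2t* was the steadiest member, with a coefficient of variation of 8.65% over the 24 libraries. It was at 132, 112, 94.9 and 121 CPM in WT and 122, 113, 120 and 115 CPM in KO at day 20, and at 127, 134, 135 and 123 CPM and 136, 118, 119 and 146 CPM at day 22. At day 24 it was at 119 and 113 CPM in WT and 118 and 116 CPM in KO, and at day 26 at 110 and 116 CPM and at 115 and 117 CPM. The genotypes overlapped on all 4 days. Its change from day 20 to day 26 was −0.02 (95% interval −0.25 to 0.21) in both WT and KO. *Prkg1*, the kinase gene in whose intron it lies, was at 18.8 to 34.9 CPM and was not called in any comparison. The log2 ratio of *Cstf2t* to *Cstf2* was 0.52 ± 0.258 in WT and 0.86 ± 0.149 in KO at day 20 (SD, 4 libraries each), 1.22 ± 0.0579 and 1.06 ± 0.247 at day 22, 0.96 and 0.92 against 0.80 and 0.85 at day 24, and 0.55 and 0.50 against 0.66 and 0.68 at day 26. Over the 4 days it differed by 0.05 (exact permutation p = 0.413), and between the ages by −0.09 (exact permutation p = 0.418).

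*Utp14a* was the lowest member. It was at 10.8, 14.7, 10.5 and 11.5 CPM in WT and 11.2, 10.5, 9.84 and 10.3 CPM in KO at day 20, and at 7.11, 8.53, 9.90 and 10.1 CPM and 8.53, 9.38, 10.3 and 7.84 CPM at day 22. At day 24 WT was at 10.6 and 11.1 CPM and KO at 9.26 and 9.02 CPM, and at day 26 WT was at 10.3 and 11.5 CPM and KO at 9.64 and 8.38 CPM. KO lay below WT without overlap on these last 2 days, but the differences of −0.25 and −0.27 were not called. Over the mean of the 4 days the difference was −0.17 (SE 0.0824, edgeR adjusted p = 0.213). With age it changed by −0.12 in WT (edgeR adjusted p = 0.575) and −0.22 in KO (adjusted p = 0.279). On library totals without TMM scaling the KO change was called (−0.41, edgeR adjusted p = 0.0251), where the median of all genes moved to −0.264.

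*Utp14b* was at 62.0, 56.2, 42.3 and 54.1 CPM in WT and 55.0, 52.2, 50.5 and 47.4 CPM in KO at day 20, and at 59.7, 58.5, 51.4 and 54.1 CPM and 48.9, 56.6, 57.3 and 54.3 CPM at day 22. At day 24 it was at 54.4 and 50.8 CPM in WT and 51.4 and 53.5 CPM in KO. At day 26 it was at 47.2 and 57.0 CPM in WT and at 64.4 and 60.1 CPM in KO, without overlap but with a difference of 0.26 that did not pass the test (SE 0.15, edgeR adjusted p = 0.529). That difference was 0.14 without WT_d26_1 and 0.40 without WT_d26_2. From day 20 to day 26 it changed by 0.28 in KO (SE 0.128, adjusted p = 0.0734) and −0.04 in WT (adjusted p = 0.812). The KO change was called when WT_d20_2 (0.28, adjusted p = 0.0494) or WT_d20_3 (0.27, adjusted p = 0.0413) was left out of the fit, and by DESeq2 (0.37, adjusted p = 0.0127). It was 0.22 with the replicate block (edgeR adjusted p = 0.167) and 0.09 on library totals without TMM scaling (adjusted p = 0.563). *Acsl3*, the fatty acid ligase gene that hosts *Utp14b*, was at 63.2 to 89.7 CPM and was not called in any comparison.

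The log2 ratio of *Utp14b* to *Utp14a* was 0.21 higher in KO over the 4 days (1.15-fold, exact permutation p = 0.0481). It was higher in KO on 3 of 4 days, and sign flips of same-numbered pairs gave an exact p of 0.0879. At day 26 it was 2.18 and 2.30 in WT against 2.72 and 2.82 in KO, whereas at day 22 the means were 2.64 ± 0.324 in WT and 2.58 ± 0.139 in KO (SD, 4 libraries each). The result was at its threshold: 16 of the 24 fits that left out 1 library gave an exact permutation p above 0.05, up to 0.0841 without WT_d22_3 (difference 0.18), and without the libraries with epididymis markers it was 0.15 (exact permutation p = 0.427). From day 20 to day 26 the ratio rose by 0.29 (exact permutation p = 0.0444), by 0.08 in WT and 0.50 in KO. That passed in 2 of 12 fits without 1 library, with the highest exact permutation p of 0.20 when WT_d26_2 was left out (difference 0.26).

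**Figure D5:**
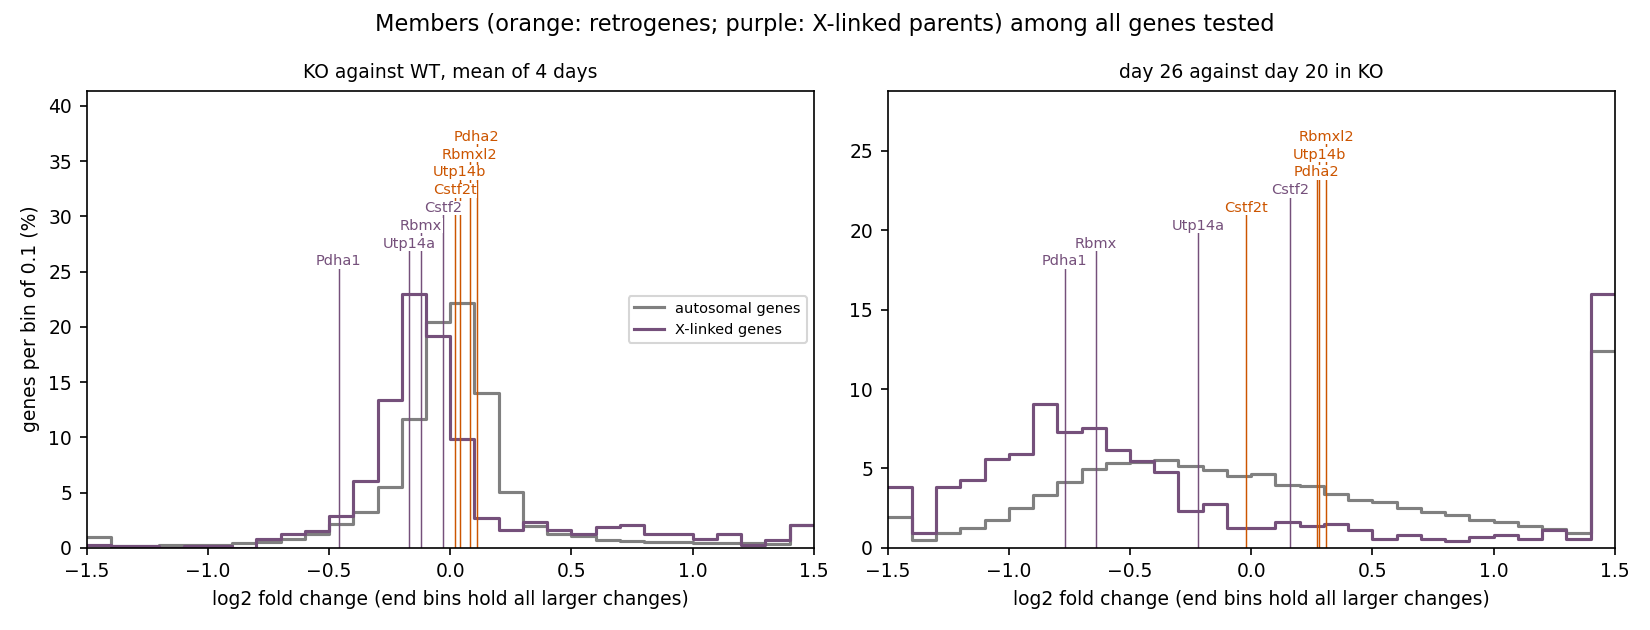
Percent of autosomal (grey) and X-linked (purple) genes per bin of 0.1 in log2 fold change, for KO against WT over the mean of the 4 days (left) and day 26 against day 20 in KO (right), with the 4 retrogenes marked in orange and the 4 parents in purple. *Pdha1* lies at −0.46 on the left, while on the right *Pdha1* (−0.77) and *Rbmx* (−0.64) lie near the X-linked median of −0.58.

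Among the partner genes of the members, edgeR called 1 between genotypes and DESeq2 called 2. The rest of the pyruvate dehydrogenase complex with its kinases and phosphatases (11 of 11 genes tested), the small subunit processome (31 of 31) and the splicing partners of RBMX (10 of 11) had 0 genes called in edgeR at any of the 4 days or over their mean, and 0 in DESeq2. At an unadjusted p under 0.05 over that mean there were 2, 0 and 0 genes of these lists (18.2%, 0% and 0%), beside 23.2% of all genes. Of the 19 cleavage and polyadenylation genes, *Papolb*, the testis poly(A) polymerase and itself an intronless retrogene, was higher in KO at day 20 (0.55, SE 0.135, edgeR adjusted p = 0.0238). It was called in 20 of the 24 fits without 1 library, with the highest adjusted p of 0.084 without KO_d20_1, where the difference was 0.47. It was not called without WT_d20_2 (0.54), WT_d20_3 (0.44), KO_d20_4 (0.57) or the 7 libraries with epididymis markers (0.42) either. The pachytene markers were at 3050 to 3870 CPM in KO and 2440 to 3150 CPM in WT at day 20 and the round spermatid markers at 60.2 to 170 and 24.4 to 75.4 CPM, and their part in the *Papolb* call was not tested. DESeq2 called *Papolb* at day 20 (0.55, adjusted p = 0.00257) and also *Cstf1*, the 50-kDa partner of CSTF2, higher at day 26 (0.63, adjusted p = 0.0295) and over the mean (0.20, adjusted p = 0.0446). *Cstf1* was not called by edgeR (0.58, adjusted p = 0.194, and 0.19, adjusted p = 0.114).

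With age, partner genes moved in both directions, although only falls were called for the processome in WT and the splicing partners in KO. Of the pyruvate dehydrogenase list, *Pdk2*, a kinase that inactivates the complex, rose by 1.56 in WT (adjusted p = 0.000734, edgeR) and 1.73 in KO (adjusted p = 0.000234), while the kinase *Pdk1* fell by 0.72 in WT (adjusted p = 0.00458) and 0.87 in KO (adjusted p = 0.000854). *Dlat*, the E2 subunit, rose by 0.46 in WT (adjusted p = 0.0315). The phosphatase genes *Pdp2* and *Pdpr* fell in both genotypes (−0.58 and −0.43 in WT, −0.71 and −0.62 in KO, edgeR adjusted p-values of 0.00328, 0.00588, 0.000588 and 0.000266). In all 2 genes rose and 3 fell in WT and 1 rose and 3 fell in KO, so 45.5% and 36.4% of the list were called, near or below the 42.5% and 52.2% of all genes, and 27.3% were lower in each genotype, beside 18.1% and 24.9%. In KO DESeq2 called 4 higher and 3 lower, with 8790 of all genes called, so the place of the list against the background depended on that choice. Without WT_d20_2 edgeR called 3 and 3 in KO, but all genes called also rose, from 8955 to 10147. In WT 1 to 4 fell without 1 library. The list medians of −0.10 and −0.13 lay beside −0.04 and −0.07 for all genes.

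Of the 31 processome genes, 0 rose and 13 fell in WT and 4 rose and 12 fell in KO, with list medians of −0.43 and −0.36. The genes that fell are 41.9% of the list in WT and 38.7% in KO, beside 18.1% and 24.9% of all genes called lower, a description with no test of the list. In either direction 41.9% and 51.6% of the list were called, beside 42.5% and 52.2% of all genes. The lowest adjusted p-values among those that fell were for *Wdr43* (−1.10, adjusted p = 0.0001, edgeR), *Utp20* (−0.84, 0.00013) and *Cirh1a* (−0.57, 0.000296) in WT, and *Rcl1* (−1.0, 7.63e-05), *Utp20* (−0.80, 0.000198) and *Nop56* (−0.90, 0.000538) in KO. The genes that rose in KO were *Bms1* (0.78, adjusted p = 0.00105), *Rrp7a* (0.71, 0.00575), *Bysl* (0.57, 0.0301) and *Utp18* (0.31, 0.0384), of which the last is named outside the rule to complete the count. Leaving out 1 library gave 7 to 17 falling genes in WT and 6 to 17 in KO, and without the 7 libraries with epididymis markers 7 fell in WT and 4 in KO. The 4 that rose in KO became 1 to 4 without 1 library, 1 without those 7 libraries and 1 on library totals without TMM scaling, where 17 fell. *Utp14a* and *Utp14b* were not among the called. Over the same days the spermatogonia markers went from 267 to 333 CPM to 172 to 185 CPM in WT and from 231 to 287 CPM to 154 to 157 CPM in KO. Early meiosis, Sertoli cell and peritubular cell markers also fell, while pachytene, spermatid and Leydig cell markers rose. The part of these cells in the processome result was not tested.

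Of the cleavage and polyadenylation genes 4 rose and 3 fell in WT and 5 rose and 1 fell in KO, which is 36.8% and 31.6% of the list and below the background of 42.5% and 52.2%. By direction, 21.1% and 26.3% were higher, beside 24.4% and 27.2% of all genes, and 15.8% and 5.26% were lower, beside 18.1% and 24.9%. Without 1 library 3 to 5 rose and 1 to 4 fell in WT, and in KO 4 to 8 rose and 1 to 3 fell, with 8 and 3 without WT_d20_2. On library totals without TMM scaling 6 fell in KO. *Papolb* rose by 1.72 in WT (edgeR adjusted p = 7.94e-08) and 1.42 in KO (adjusted p = 1.19e-06). Over the same days the pachytene markers went from 2440 to 3150 CPM to 5340 to 5740 CPM in WT and from 3050 to 3870 CPM to 6780 to 6800 CPM in KO. The part of these cells in the *Papolb* change was not tested. *Pcf11*, a termination factor, rose by 0.74 (2.55e-05) and 0.77 (2.19e-05), and *Rbbp6* by 0.74 in WT (0.000562). *Cstf1* rose by 0.45 in WT (0.0147) and 0.82 in KO (adjusted p = 7.28e-05). *Cpsf6* fell by 0.56 in WT (0.0142) and 0.87 in KO (0.000484), and *Cpsf3* and *Papolg* fell in WT (−0.45, adjusted p = 0.00288, and −0.73, adjusted p = 0.0277). Of the 10 tested splicing partners, *Khdrbs3*, a STAR family splicing factor, rose in WT (0.54, adjusted p = 0.0222) and *Rbmxl1* fell as given above. In KO *Srsf1* (−0.46, 0.00471) and *Srsf3* (−0.60, 0.0148) fell. These are 20.0% of the splicing partners in each genotype, also below the background. Without 1 library 0 to 1 rose and 0 to 2 fell in KO, and on library totals without TMM scaling 7 of the 10 fell there.

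A further 12 autosomal retrogenes with 11 X-linked parents were set beside the members. From day 20 to day 26, 7 of these retrogenes rose and 1 fell in WT, and 7 rose and 0 fell in KO, with medians of 0.84 and 0.94. Over the same days the pachytene markers, *Pgk2* among them, went from 2440 to 3150 CPM to 5340 to 5740 CPM in WT and from 3050 to 3870 CPM to 6780 to 6800 CPM in KO. The round spermatid markers went from 24.4 to 75.4 CPM to 839 to 847 CPM in WT and from 60.2 to 170 CPM to 918 to 1000 CPM in KO, and the part of these cells was not tested. Of the parents, 0 rose and 3 fell in WT and 0 rose and 9 fell in KO, with medians of −0.37 and −0.75, against −0.04 and −0.07 over all genes and −0.40 and −0.58 over the X-linked genes. The parents that fell were 27.3% of those tested in WT and 81.8% in KO, beside 35.1% and 47.5% of X-linked genes. The retrogenes that rose were 58.3% in each genotype, beside 24.4% and 27.2% of all genes called higher. Without 1 library between 4 and 9 parents fell in KO, and without the 7 libraries with epididymis markers 2 did. Values are given for the 4 with the highest retrogene level, of which no parent was called in WT. *Gk2* rose by 1.02 in WT (edgeR adjusted p = 0.00142) and 0.86 in KO (0.00453), and *Gykl1* by 1.55 (3.76e-05) and 1.25 (0.000383), while their common parent *Gyk*, a glycerol kinase gene, changed by 0.27 (0.719) and −0.65 (0.358). *Pgk2*, the glycolytic phosphoglycerate kinase of the germ line, rose by 2.36 (5.33e-08) and 1.68 (2.65e-06), and its parent *Pgk1* changed by 0.17 in WT (0.493) and fell in KO by 0.50 (0.0394). *Cetn1*, a centrin gene, rose by 0.67 (0.0477) and 1.03 (0.00291), and *Cetn2* changed by −0.22 in WT (0.476) and fell in KO by 0.76 (0.0133). Against these, the 4 member retrogenes had medians of 0.11 in WT and 0.27 in KO and no call, and the 4 member parents medians of −0.23 and −0.43.

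Between genotypes, 0 of the 11 further parents were called at any day or over the mean, with 2 (18.2%) at an unadjusted p under 0.05 over the mean, beside 23.2% of all genes. DESeq2 called *Zrsr2* lower at day 20 (−0.38, adjusted p = 0.0346) and *Gyk* lower over the mean (−0.78, adjusted p = 0.0419), with edgeR adjusted p-values of 0.0979 and 0.0923. *Pgk2* was higher in KO at day 20 (0.80, edgeR adjusted p = 0.0131), at 123 to 176 CPM against 55.3 to 99.3 CPM in WT. *G6pd2* was called higher at that age (edgeR adjusted p = 0.011), at 0.196 to 4.0 CPM against 0 to 0.105 CPM, where WT libraries held 0 to 1 counts. *Ubl4b* was called higher at day 22 (2.79, edgeR adjusted p = 0.0296), at 2.88 to 16.1 CPM against 0.767 to 1.55 CPM. Over the mean of the 4 days *G6pd2* (edgeR adjusted p = 0.0169) and *Ubl4b* (adjusted p = 0.0226) were called higher and *Zfa-ps* (−0.52, adjusted p = 0.0456) lower, which is 25.0% of the 12 retrogenes beside 7.08% of all genes. No mean fold is given for the first pair, since WT libraries held 0 to 1 counts of *G6pd2* and 0 to 3 of *Ubl4b* at day 20. *G6pd2* overlapped between genotypes at day 24 (11.6 to 17.6 CPM in WT, 12.4 to 13.4 CPM in KO) and day 26 (22.1 to 24.3 and 22.4 to 28.7 CPM). *Ubl4b* did not, at 11.7 to 17.2 CPM in WT and 18.3 to 24.3 CPM in KO at day 24 and 36.0 to 43.6 and 46.8 to 47.4 CPM at day 26. *G6pd2*, *Ubl4b* and *Zfa-ps* were named after their values were seen.

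Leaving out single libraries ended each of these calls in at least 1 fit. The *Ubl4b* call at day 22 was lost with the replicate block (2.79, edgeR adjusted p = 0.0752) and without WT_d22_2 (adjusted p = 0.0822), WT_d22_3 (0.105), WT_d22_4 (0.128) or KO_d22_2 (0.137). *Pgk2* at day 20 was lost without WT_d20_3 (0.66, adjusted p = 0.0538) or KO_d20_4 (0.79, adjusted p = 0.0502), and *G6pd2* at day 20 without WT_d20_3 (adjusted p = 0.0581). Over the mean, *G6pd2* was lost without WT_d24_2 (adjusted p = 0.054) and *Ubl4b* without WT_d24_2 (0.0679), KO_d24_1 (0.0517), WT_d26_2 (0.0528) or KO_d26_2 (0.0509), while *Zfa-ps* was called in 6 of the 24 fits without 1 library, with adjusted p-values up to 0.113. None of these calls was made without the 7 libraries with epididymis markers, although the differences there were 0.65 for *Pgk2* at day 20, 2.94 for *Ubl4b* at day 22 and −0.71 for *Zfa-ps* over the mean. The elongating spermatid markers were at 6.21 to 100 CPM in KO and 1.68 to 7.34 CPM in WT at day 20 and at 80.8 to 548 and 36.3 to 79.3 CPM at day 22, and the round spermatid markers at 60.2 to 170 and 24.4 to 75.4 CPM and at 167 to 483 and 129 to 196 CPM. Their part in these calls was not tested.

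The genes whose levels followed each retrogene most closely were taken by Pearson's r of log2 CPM over the 24 libraries, which share age, depth and cell composition, as a description. For *Pdha2* they were *Parpbp* (0.947), *Ranbp17* (0.939) and *Pdhx* (0.932). *Pdhx* encodes the E3-binding protein, another component of the pyruvate dehydrogenase complex. For *Utp14b* they were *Iqcg* (0.859), *Birc5* (0.851) and *Tex14* (0.832), for *Cstf2t* *Stom* (0.843), *Tbl2* (0.831) and *Zfp174* (0.813), and for *Rbmxl2* *Slc33a1* (0.805), *Psmd13* (0.802) and *Gpr65* (0.797). Each retrogene had a negative r with its own parent, at −0.263 for *Pdha2*, −0.138 for *Utp14b*, −0.547 for *Cstf2t* and −0.327 for *Rbmxl2*.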

How the data were processed

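Testis RNA was depleted of ribosomal RNA, made into stranded libraries and sequenced in pairs of 75 bases. The tables deposited by the authors hold unnormalized counts: the authors aligned read pairs to mm10 with STAR (2.7.11b) and counted exonic pairs by strand with HTSeq, discarding pairs with several alignments, so a gene with near-identical copies loses counts. The gene model version is not given in the sources used here. The authors' normalization with DESeq2 1.22.2 is not part of these count tables. The extraction text in the labels also names a purification of spermatogenic fractions, whereas markers of somatic testis cells were found in all 24 libraries. The study's methods give fewer replicates per genotype at day 20 than the 4 that the labels and files hold, and all 4 were used.

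Rows for pairs not assigned to a gene (45.1 to 58.5% without a feature) were left out. A count of 3 equals 0.153 to 0.316 CPM, by counting error only. Counts were fitted with edgeR 4.0.16 (R 4.3.3, limma 3.58.1; filterByExpr with a minimum count of 10, TMM, robust quasi-likelihood, 8 groups of genotype and day over all 24 libraries), tested on simulated data first, with Benjamini-Hochberg adjustment over 17170 genes and a threshold of 0.05. Ratios of retrogene to parent were tested by exact permutation. DESeq2 1.42.0, no count filter, no TMM, each day alone, a replicate block and leaving out each library were alternatives. Sequences and coordinates were read with Python 3.11.15 and Biopython 1.88, and all 8 members matched the RefSeq promoter table. Named genes were the members, their host genes and *Rbmxl1*, up to 3 called genes per direction with the lowest adjusted p from each partner list, the 4 further pairs with the highest retrogene level, and the 3 genes closest to each retrogene in level. The members and all lists were chosen with earlier results of these data known.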

Additional observations from a re-analysis of the deposited data

Results flagged for a closer look

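Of 48 groups of 4 libraries examined (the members' levels and the 4 ratios), 2 held a library far from the others, where chance at 1 in 20 gives 2.4. *Cstf2* was at 91.7 CPM in WT_d20_2, against 75.2 to 76.0 CPM in the other WT libraries of day 20. *Rbmx* was at 21.7 CPM in KO_d22_2, against 24.6 to 25.0 CPM in the other KO libraries of day 22.

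The KO difference of *Cstf2* had opposite signs without overlap of the groups, at −0.29 (day 20) and −0.11 (day 26) against 0.15 (day 22) and 0.13 (day 24) on the log2 scale. The difference between single pairs of days was not tested, and the joint test over the 4 days gave an edgeR adjusted p of 0.375.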

How the results depend on the processing

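Apart from leaving out libraries, DESeq2 and the other settings kept the *Pdha1* difference over the 4 days past the threshold, and the *Rbmx* decline held under all but the alternative without the 7 libraries with epididymis markers. That alternative was chosen after seeing the data, drops days 24 and 26 to 1 library per genotype, and in all settings below the cause of a change was not tested. The counts of genes called were 901, 749, 40, 153 and 1827 with DESeq2 (days 20, 22, 24, 26 and the mean) and 262 in the joint test. With age in KO DESeq2 called 8790 of all genes, beside 8955 of 17170 (52.2%) in edgeR. So the 4 of 8 members that DESeq2 called with age in KO are near the background. With each day fitted alone the counts were 5 at day 20, 69 at day 22 and 2104 at day 26. Without TMM they were 30 at day 26 and 0 in the joint test, and all-gene medians moved to −0.104 at day 26 and, with age, to −0.146 in WT and −0.264 in KO. Without the 7 libraries they were 7, 103, 1, 0 and 59, with 0 in the joint test, 3586 with age in WT and 4442 in KO. Members called numbered 1 at day 20, 1 in the joint test and 4 with age in KO with DESeq2 (*Pdha1*, −0.68, *Rbmx*, −0.55, *Utp14b*, 0.37, and *Cstf2*, 0.25), 1 at day 26 with that day alone, and 0 over the mean of the 4 days, 0 with age in WT and 0 in KO without the 7 libraries.

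Equal replicate numbers did not meet the rule for pairing, a correlation over 0.1 in every pair, and whether a number marks shared handling is not known: the correlation of deviations between same-numbered KO and WT libraries was 0.0705 to 0.41 at day 20, −0.459 to −0.0254 at day 22, 0.39 at day 24 and 0.416 at day 26, where 2 libraries per group give both numbers the same value. With the replicate block 333, 235 and 17 genes were called at days 20, 22 and 26 and 0 in the joint test. The *Utp14b* to *Utp14a* ratio (0.21) had an exact p of 0.0879 by sign flips of the differences between same-numbered libraries. Without the 7 libraries that ratio was 0.15, that of *Rbmxl2* to *Rbmx* 0.11 and that of *Cstf2t* to *Cstf2* 0.00, all in KO against WT.

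Differences near 0 changed sign. Without the count filter they were 0.01 for *Utp14b*, 0.05 for *Cstf2t* and 0.03 for *Rbmx* at day 22, and with age 0.00 for *Cstf2t* and 0.01 for *Cstf2* in WT and 0.01 for *Cstf2t* in KO. With DESeq2 they were 0.02 for *Cstf2t* and 0.00 for *Rbmx* at day 22, and with age 0.01 for *Cstf2t* and 0.02 for *Cstf2* in WT and 0.07 for *Cstf2t* in KO. Without TMM they were 0.01 for *Cstf2t* at day 22, 0.02 for *Utp14b* at day 24, −0.03 for *Cstf2t* and −0.04 for *Rbmxl2* at day 26 and −0.03 for *Cstf2* with age in KO. With each day alone they were 0.02 for *Cstf2t* at day 22 and 0.00 for *Utp14b* at day 24. Without the 7 libraries they were −0.04, −0.05 and −0.01 for *Pdha2*, *Cstf2t* and *Rbmxl2* at day 20, −0.01, 0.02 and −0.06 for *Pdha2*, *Utp14b* and *Rbmxl2* at day 22, −0.01 and −0.02 for *Cstf2t* and *Rbmxl2* at day 24, 0.00 for *Cstf2* and *Rbmxl2* over the mean, and 0.01 for *Cstf2t* with age in KO.

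Leaving out 1 library gave 151 to 780 genes called at day 20, 60 to 858 at day 22, 0 to 24 at day 24, 0 to 103 at day 26, 302 to 1737 over the mean and 0 to 140 in the joint test, and with age 4724 to 7971 in WT and 5829 to 10147 in KO. Members called were 0 to 1 at days 20 and 22 and over the mean, and 1 to 3 with age in each genotype. The *Utp14b* to *Utp14a* ratio ranged from 0.18 to 0.24 between genotypes and from 0.25 to 0.35 with age, and the *Pdha2* to *Pdha1* ratio with age from 0.70 to 0.92. Signs changed within −0.03 to 0.32 for *Pdha2*, −0.16 to 0.01 for *Utp14b* and −0.04 to 0.11 for *Cstf2t* at day 20. At day 22 the ranges were 0.00 to 0.10 for *Pdha2*, −0.07 to 0.01 for *Utp14b*, −0.06 to 0.09 for *Utp14a*, −0.06 to 0.04 for *Cstf2t* and −0.04 to 0.03 for *Rbmx*. They were −0.04 to 0.05 for *Utp14b*, −0.01 to 0.05 for *Cstf2t* and −0.03 to 0.12 for *Rbmx* at day 24, and −0.05 to 0.14 for *Rbmxl2* at day 26. With age they were −0.19 to 0.08 for *Utp14b*, −0.13 to 0.02 for *Cstf2t* and −0.08 to 0.04 for *Cstf2* in WT.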
